A study of Homo sapiens with 17 samples.

Results

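L363 cells treated for 48 hours with 10 nM rapamycin together with 0.5 uM MS275 were compared by their RNA with untreated L363 cells. L363 is a human multiple myeloma cell line, a tumour of antibody-secreting plasma cells. The comparison uses 5 of the 17 arrays in the study, chosen by their titles: 2 arrays of the 10 nM combination and 3 arrays of the control, which received no drug. The design text says that every group had 3 replicates and that 1 array failed quality control, and the combination is the only group with 2. The other 12 arrays hold L363 cells given 0.5 uM MS275 alone, 1 nM rapamycin with MS275, and 1 nM or 10 nM rapamycin alone, with 3 arrays each, all at 48 hours. They enter below where the combination is set against a single drug or against the lower dose. The labels do not say whether replicates were separate cultures, so p-values measure the spread between arrays, which may be technical. L363 is 1 line, and both drugs were given at 1 time point.

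Rapamycin binds the protein FKBP12 and inhibits mTOR complex 1, a kinase that couples nutrient supply to protein synthesis, amino acid uptake and lipid synthesis. Part of that control runs through the transcription factors ATF4 and SREBP. MS275, also called MS-275 or entinostat, inhibits class I histone deacetylases, which remove acetyl groups from histone tails and mostly repress transcription. The series title concerns degradation of MYC, a transcription factor that drives growth and proliferation and is often deregulated in myeloma. The arrays measure RNA and give no protein level. In bulk RNA, fewer cells of a type or cell cycle stage and less RNA per cell cannot be told apart.

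The values are log2 signals of probe sets, and 19775 genes had a probe set that names no other gene, of which the one with the highest mean on the 17 arrays was used. The median of an array lay between 5.09 and 5.36. The values of control replicate 1 spread less than those of the other 4 arrays compared, with a standard deviation (SD) over probe sets of 2.14, against 2.27 and 2.34 on the combination arrays and 2.36 and 2.37 on the other control arrays. In a principal component analysis the first component, with 36.8% of the variance, set 2 arrays apart from the rest, control replicate 1 and the first replicate of the 1 nM combination. The 2 arrays of the 10 nM combination lay on opposite sides of the second component (22% of the variance), at -44.6 and 31.4. In the other 5 groups every replicate 2 lay on the side of combination replicate 1 and every replicate 3 on that of combination replicate 2, and what moves with this component was not tested. All 8 arrays with MS275 lay on 1 side of the third component (17.2%), from -32.8 to -16.2, and the 9 arrays without it on the other, from 17.8 to 32.1.

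Of the 19775 genes, 652 (3.3%) differed between the 10 nM combination and control at an adjusted p under 0.05 (limma, Benjamini-Hochberg over all genes). The combination was lower for 443 genes (2.24%) and higher for 209 (1.06%). On all 652 genes the 2 combination arrays lay outside the range of the 3 control arrays, as they did for 21.5% of all genes. The median change was -1.35 on the log2 scale among the genes that fell and 1.41 among those that rose, and 76 genes fell and 41 rose by more than 2 log2 units. Over all genes the median change was -0.08, and it was 0.03 without control replicate 1. The count rests on few arrays: 159 genes passed without combination replicate 2, 232 without combination replicate 1 and 420 without control replicate 3. With the 5 arrays fitted on their own, and no spread borrowed from the other 4 groups, no gene passed, while 1572 had an unadjusted p under 0.05 (limma). Of 41 gene lists, those with the most falls were mitosis (28 genes), the replicative helicase (14), glycolysis (12) and ATF4 targets with amino acid transport (11). The list with the most rises was MHC class II (8 genes).

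**Figure D1:**
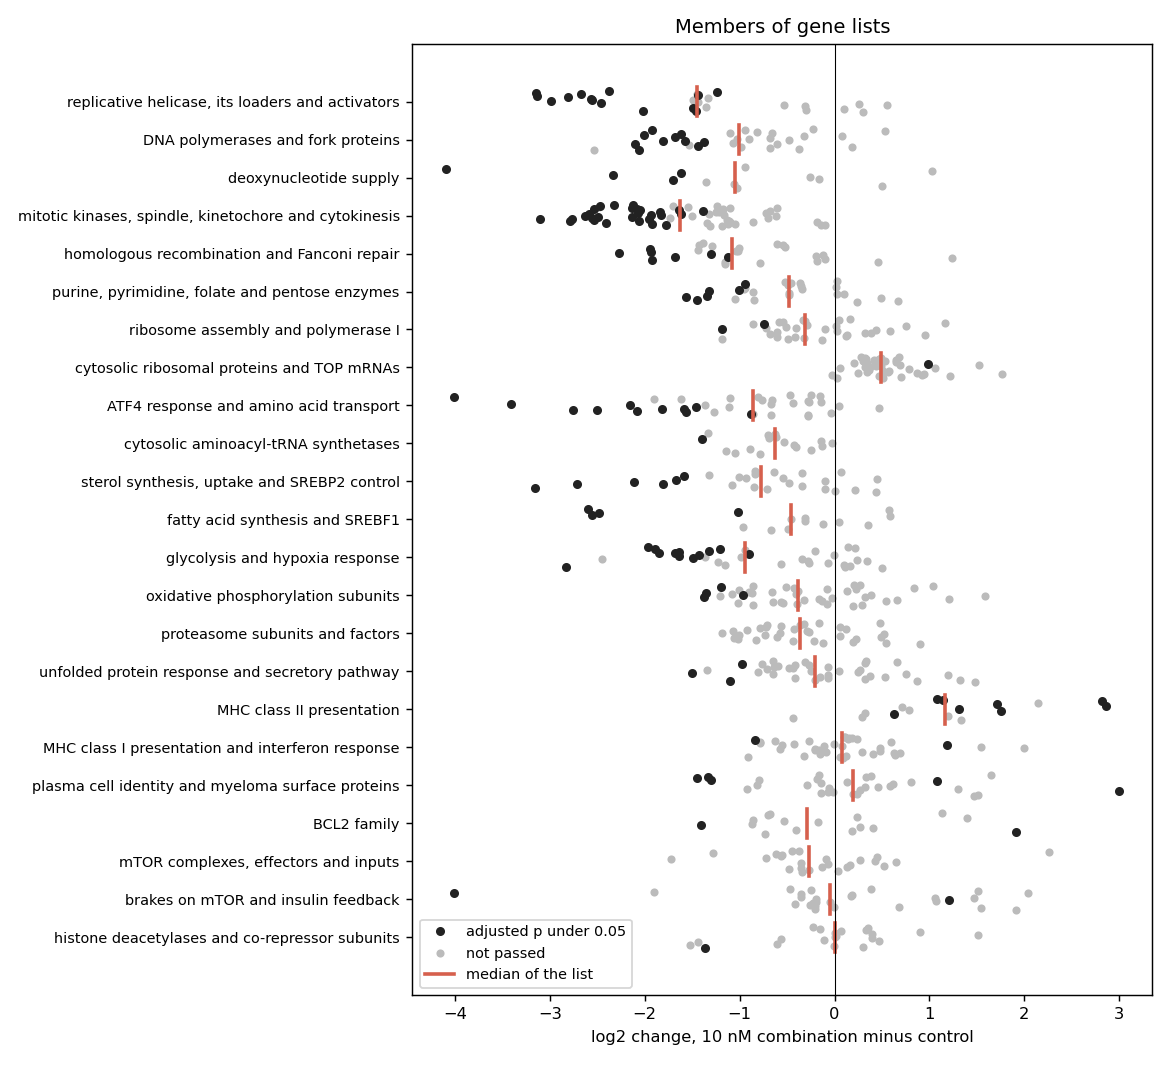
Log2 change of every measured member of 23 gene lists, 10 nM combination minus control; each point is a gene, black where the limma adjusted p was under 0.05, and the red bar is the median of the list. The lists of replication, mitosis and repair genes lie left of 0, with medians from -1.63 to -1.002, and MHC class II lies right of it, with a median of 1.17.

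Genes of the replicative helicase fell. This helicase is the MCM2 to MCM7 ring that unwinds DNA ahead of the fork, loaded in G1 by CDC6 and its partners and started by CDC45, the GINS complex and MCM10. Of the 26 measured members of the list, 14 fell and none rose, with a median log2 change of -1.45. Over all genes 2.24% fell and the median was -0.08. MCM4, a subunit of the ring, had log2 signals of 7.29 and 7.23 on the combination arrays and 10.22, 10.25 and 10.76 on the control arrays. Both combination arrays were almost 3 log2 units below the lowest control, and the change was -3.15 ± 0.24 (SE), an 8.88-fold lower level (limma adjusted p = 3.27e-05). The other probe sets of MCM4 changed less, by -1.775 to -0.238. MCM5 and MCM2, further subunits of the ring, changed by -2.67 ± 0.32 and -2.38 ± 0.29 (adjusted p = 0.000406 and 0.000486). GINS2, a subunit of the GINS complex, had 6.53 and 6.59 in the combination and 8.96, 9.27 and 9.13 in control. The arrays of each group lay close together, and the change was -2.56 ± 0.24 (5.91-fold lower, adjusted p = 0.000104). The other probe sets of GINS2 changed much less, by -0.30 and -0.23. CDC45 had 5.77 and 5.52 in the combination and 8.12, 8.46 and 8.77 in control, a change of -2.81 ± 0.28 (adjusted p = 0.000167). GINS4 changed by -2.56 ± 0.34 (adjusted p = 0.000939). For CDC6, which loads the ring onto origins, the combination arrays read 4.995 and 4.962 and the control arrays 6.93, 8.23 and 8.73. The control arrays were more spread than the combination arrays, with control replicate 1 the lowest, and the change was -2.99 ± 0.41 (adjusted p = 0.00109). MCM10 showed the same layout, with 5.39 and 5.18 in the combination and 7.25, 9.03 and 8.96 in control, and changed by -3.13 ± 0.45 (adjusted p = 0.00148). These 8 genes each passed with any 1 of the 17 arrays left out. The count of members that fell was 9 without combination replicate 2 and 11 without combination replicate 1, and the list median lay between -1.84 and -1.36 over every alternative run.

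Promoter sequences of the helicase genes CDC6 and GINS2 and of the G1/S genes E2F2 and CDC25A are shown because E2F factors, which switch on replication genes at the G1/S transition, bind a short motif near the start of such genes. The motif was searched on both strands as TTTCCCGC, TTTCGCGC, TTTGCCGC or TTTGGCGC, from 250 bases before to 50 bases after each RefSeq start (GRCh38.p14). It is in capitals, in these words or in their reverse complement, and each sequence is given 5′ to 3′ on the strand of its gene. The stretches lie at chr17:40287846-40287908 (plus strand, CDC6), chr16:85688938-85689025 (minus strand, GINS2), chr1:23531228-23531315 (minus strand, E2F2) and chr3:48188414-48188501 (minus strand, CDC25A).
CDC6: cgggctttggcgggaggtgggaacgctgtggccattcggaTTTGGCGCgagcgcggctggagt
GINS2: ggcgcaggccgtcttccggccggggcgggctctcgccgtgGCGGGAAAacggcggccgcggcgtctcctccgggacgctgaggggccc
E2F2: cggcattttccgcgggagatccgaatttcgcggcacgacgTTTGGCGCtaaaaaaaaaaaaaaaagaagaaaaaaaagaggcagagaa
CDC25A: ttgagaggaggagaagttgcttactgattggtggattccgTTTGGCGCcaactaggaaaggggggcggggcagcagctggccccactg
One of these words was found in 13 of the 30 windows of helicase genes (43.3%) and 13 of the 33 windows of fork genes (39.4%), against 874 of 21490 windows of all tested genes (4.07%). Among the 443 genes that fell, 39 of 510 windows held one (7.65%), and among the 209 that rose, 13 of 261 (4.98%). Within the helicase list, 13 genes with the motif had a median change of -1.44 and 9 genes without it one of -1.35, which was not tested. A match describes letters in a window and shows no binding.

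DNA polymerases and other fork proteins fell for 10 of 30 measured members and rose for none, with a median of -1.002, while 2.24% of all genes fell and 1.06% rose. The count was 3 without combination replicate 1 and 2 without combination replicate 2. POLA2, a subunit of the polymerase alpha-primase complex that lays down primers, had 6.37 on both combination arrays and 7.49, 8.47 and 8.91 in control, a change of -1.92 ± 0.33 (adjusted p = 0.00463; 0.0578 without combination replicate 2). POLE, the catalytic subunit of the leading-strand polymerase epsilon, changed by -1.61 ± 0.28 (adjusted p = 0.00584; 0.114 without combination replicate 2). CLSPN, the checkpoint adaptor claspin, changed by -1.58 ± 0.27 (adjusted p = 0.00495; 0.0724 without combination replicate 1). The histone chaperones ASF1B and CHAF1B, which place histones behind the fork, changed by -2.06 ± 0.36 and -1.44 ± 0.28 (adjusted p = 0.0063 and 0.0106), and both lost their calls without either combination array, each left out in turn (adjusted p from 0.0637 to 0.117). TIMELESS, a fork protection protein, changed by -1.37 ± 0.27 (adjusted p = 0.012) and also lost its call without either one (0.0961 and 0.0922).

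Deoxynucleotide supply held the largest fall of the comparison, in which 2.24% of all genes fell. RRM2, the regulated subunit of ribonucleotide reductase, which makes deoxynucleotides for replication, had 6.95 and 7.51 in the combination and 10.73, 11.23 and 12.004 in control. The 2 groups were more than 3 log2 units apart at their nearest arrays, and the change was -4.09 ± 0.42, a 17.1-fold lower level (adjusted p = 0.000177). It passed with any 1 array left out, and its other probe set changed by -2.83. TK1, cytosolic thymidine kinase, changed by -2.33 ± 0.41 (adjusted p = 0.0063; 0.068 and 0.0571 without combination replicate 1 and 2). DTYMK, which phosphorylates dTMP, changed by -1.70 ± 0.29 (adjusted p = 0.00481; 0.0781 without combination replicate 2). TYMS, thymidylate synthase, had 9.94 and 10.35 in the combination and 10.79, 12.20 and 12.30 in control. Its control replicate 1 lay nearer to the combination than to the other controls, and the change of -1.62 ± 0.39 (adjusted p = 0.0359) passed in 9 of the 17 fits that left out 1 array. In all, 4 of 12 measured members fell and none rose, with 2 calls without combination replicate 1 and 1 without combination replicate 2.

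**Figure D2:**
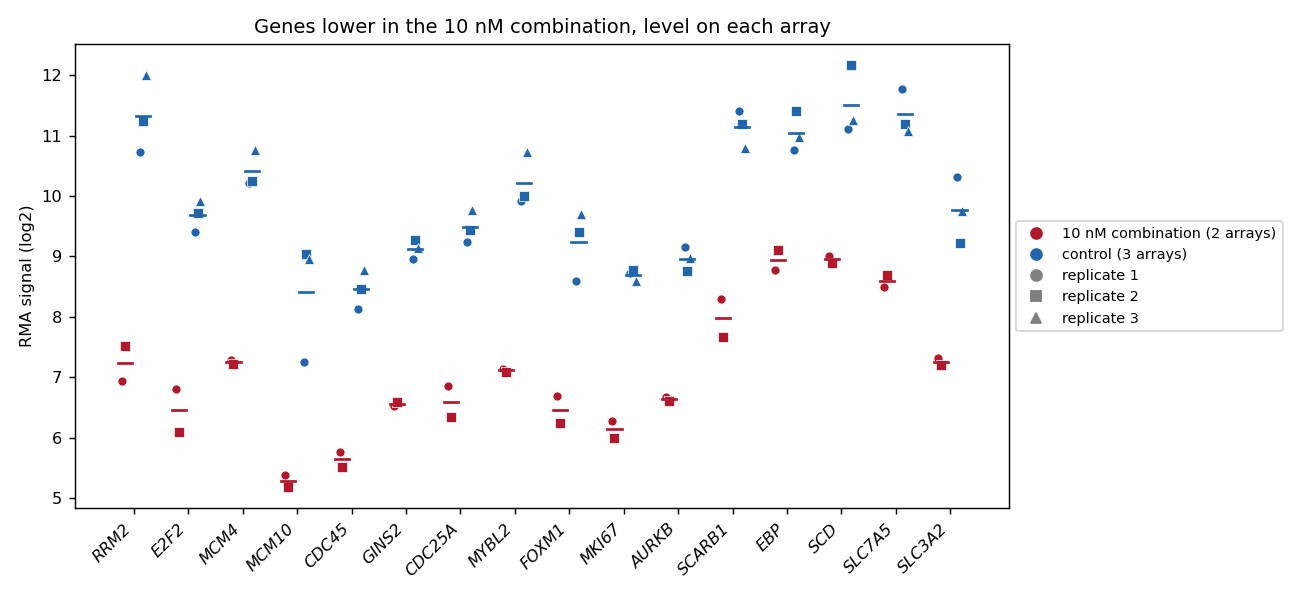
Log2 RMA signal of 16 genes on each array of the 10 nM combination (red, left of each pair) and control (blue); points are arrays, symbols are replicate numbers and bars are group means. On all 16 genes both combination arrays lie below the 3 control arrays, by over 3 log2 units for RRM2.

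Among the regulators of the G1/S transition, 3 of 30 measured genes fell, E2F2, CDC25A and CDK2, and 5 did without control replicate 1. The list median was -0.29, and it was -0.63 without control replicate 1. Without combination replicate 1 it was -0.06, and without combination replicate 2 it was -0.55. Over all genes 2.24% fell. E2F2, one of the activating E2F factors, had 6.80 and 6.10 in the combination and 9.40, 9.71 and 9.91 in control, a change of -3.23 ± 0.35 (9.36-fold lower, adjusted p = 0.000274). CDC25A, the phosphatase that activates CDK2, had 6.85 and 6.34 in the combination and 9.25, 9.44 and 9.76 in control. The control arrays differed among themselves by about as much as the combination arrays did, and the change was -2.89 ± 0.23 (7.4-fold lower, adjusted p = 3.27e-05). Both passed with any 1 array left out. CDK2, the kinase itself, changed by -1.13 ± 0.23 (adjusted p = 0.0143; 0.121 and 0.093 without combination replicate 1 and 2). E2F1, the family's best known activator, did not pass, with 7.70 and 7.09 in the combination and 7.68, 8.63 and 7.93 in control (-0.69 ± 0.44, adjusted p = 0.552). Of the CDK inhibitors, CDKN1A (p21) had 8.18 and 8.46 in the combination and 9.79, 8.09 and 9.26 in control, and CDKN1B (p27) had 8.92 and 9.96 in the combination and 7.22, 8.79 and 8.77 in control. The groups overlapped for CDKN1A, did not for CDKN1B, and neither gene passed (adjusted p = 0.577 and 0.445).

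Mitotic genes formed the longest list of falls: 28 of 58 measured members fell, none rose, and all 58 had a log2 change below 0, with a median of -1.63. Over all genes tested 2.24% fell. The count was 17 with either combination array left out. MYBL2, part of the complex that switches on late cell cycle genes, had 7.14 and 7.09 in the combination and 9.92, 10.01 and 10.73 in control, a change of -3.11 ± 0.25 (8.62-fold lower, adjusted p = 3.27e-05). FOXM1, the factor that acts with it in G2, had 6.70 and 6.24 in the combination and 8.60, 9.41 and 9.71 in control, a change of -2.77 ± 0.35 (adjusted p = 0.000565). For both, all controls lay far above the combination, with control replicate 1 the lowest control. MKI67, which encodes the proliferation antigen Ki-67, had 6.28 and 5.99 in the combination and 8.72, 8.77 and 8.60 in control. The 3 controls agreed within 0.2 log2 units, and the change was -2.56 ± 0.23 (5.89-fold lower, adjusted p = 7.46e-05). The kinases AURKB, PLK1 and AURKA, which run chromosome alignment, mitotic entry and spindle assembly, changed by -2.32 ± 0.27, -2.47 ± 0.34 and -2.12 ± 0.29 (adjusted p = 0.000345, 0.00106 and 0.00115). AURKA also binds MYC-family proteins and slows their turnover, and its combination arrays read 7.20 and 7.57, against 9.15, 9.46 and 9.90 in control. NCAPH, a subunit of the condensin complex that compacts chromosomes, changed by -2.79 ± 0.28 (adjusted p = 0.000177). The kinetochore genes CENPM and SPC24 changed by -2.62 ± 0.26 and -2.49 ± 0.26 (adjusted p = 0.000177 for each). The 9 genes named here passed with any 1 array left out. TRIP13, an ATPase that takes apart the mitotic checkpoint complex, was among the 15 largest falls of the comparison (-2.85 ± 0.43, adjusted p = 0.00229; 0.0522 without combination replicate 2).

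Late cell cycle promoters carry the cell cycle homology region (CHR), a motif bound by the MuvB complexes to which MYBL2 belongs. It was searched on both strands as TTTGAA or TTTAAA, in the same windows as the E2F motif. It is shown in the stretches of MKI67 (chr10:128126407-128126492, minus strand) and PLK1 (chr16:23678820-23678905, plus strand). These are the 2 with the largest falls among the named mitotic genes that passed and hold it before the last bases of a window. The capitals mark the match nearest the downstream end of each window, its last bases left out. The first base of the match lies at position -29 from the annotated start in both. The MKI67 stretch holds another TTTGAA upstream, left in lower case.
MKI67: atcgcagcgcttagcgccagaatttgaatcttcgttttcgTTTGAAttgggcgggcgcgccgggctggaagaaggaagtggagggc
PLK1: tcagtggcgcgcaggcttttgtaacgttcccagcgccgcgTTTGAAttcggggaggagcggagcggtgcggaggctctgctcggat
The motif was in 47 of the 62 windows of mitotic genes (75.8%) and in 4249 of 21490 windows of all tested genes (19.8%). Among genes that fell it was in 22.9% of windows, and among genes that rose in 22.6%. Within the mitotic list, 43 genes with the motif had a median change of -1.54, with 19 called, and 5 genes without it had one of -2.32, with 3 called.

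Genes of homologous recombination and the Fanconi pathway, which repair broken and cross-linked DNA and are also induced in S phase, fell for 7 of 26 measured members and rose for none (median -1.08). Over all genes 2.24% fell. The count was 3 without combination replicate 1, 1 without combination replicate 2 and 3 without control replicate 3. FANCB, a subunit of the Fanconi core complex, had 3.77 and 3.78 in the combination and 5.15, 4.998 and 5.08 in control. The arrays of each group agreed closely, and the change was -1.30 ± 0.18 (adjusted p = 0.00115). It passed with any 1 array left out, and its 3 other probe sets changed by -0.78 to 0.23. RAD54L, a motor protein of strand exchange, and BLM, the helicase mutated in Bloom syndrome, changed by -1.94 ± 0.35 and -1.93 ± 0.35 (adjusted p = 0.00743 and 0.00713) and lost their calls without combination replicate 2 (0.104 and 0.117). H2AX, the histone variant phosphorylated at DNA breaks, had 7.88 and 7.57 in the combination and 9.41, 9.63 and 9.95 in control (-1.94 ± 0.23, adjusted p = 0.000371), and it passed with any 1 array left out.

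**Figure D3:**
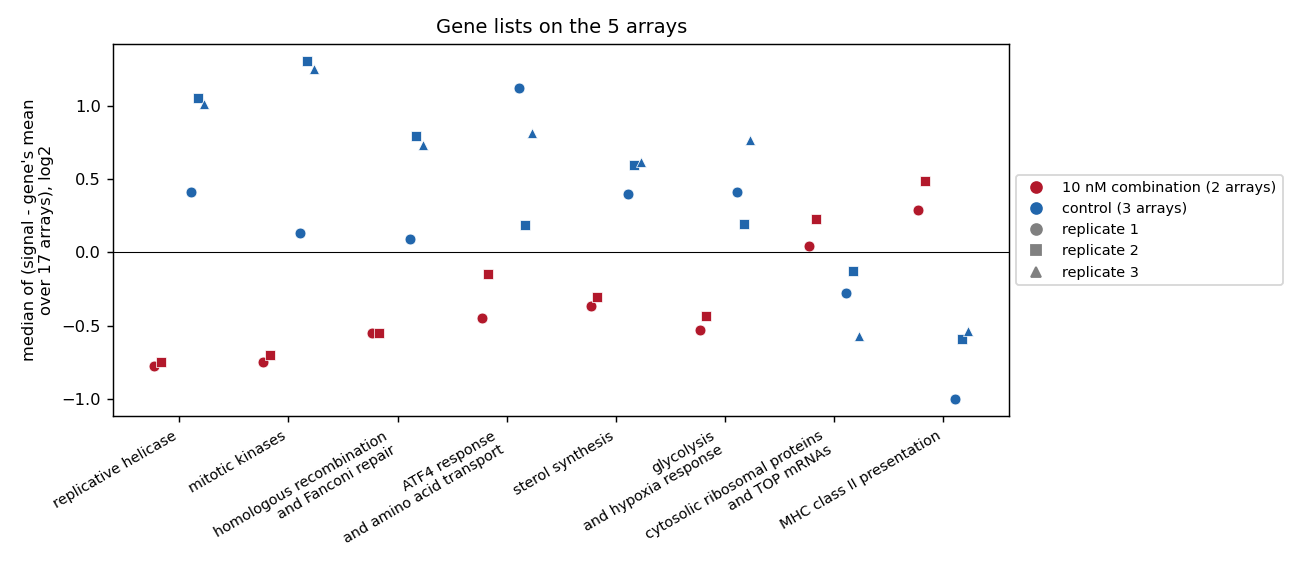
Median over the genes of 8 lists of the log2 signal minus the gene's mean over the 17 arrays, on each array of the 10 nM combination (red) and control (blue). Both combination arrays lie below all controls for the 6 lists on the left and above them for ribosomal proteins and MHC class II, and control replicate 1 lies below the other controls for the replication, mitosis and repair lists.

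The array medians of these lists show how the 5 arrays contribute. For the mitotic list the median deviation from each gene's mean was -0.75 and -0.70 on the combination arrays and 0.13, 1.30 and 1.25 on the control arrays. The combination arrays lay close together, and control replicate 1, the array with the narrow range, lay between the groups. For the ATF4 list it was -0.45 and -0.14 in the combination and 1.12, 0.19 and 0.81 in control, where control replicate 2 lay nearest to the combination.

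ATF4 is the transcription factor of the amino acid response, and mTOR complex 1 raises its translation. Of 35 measured genes of ATF4 targets and amino acid transport, 11 fell and none rose, with a median of -0.86. Of all genes, 2.24% fell, here and beside the metabolic lists that follow. SLC7A5 and SLC3A2 encode the light and heavy chains of the LAT1 transporter for large neutral amino acids. SLC7A5 had 8.49 and 8.69 in the combination and 11.78, 11.19 and 11.08 in control, a change of -2.76 ± 0.26 (6.76-fold lower, adjusted p = 0.000104). SLC3A2 had 7.31 and 7.21 in the combination and 10.31, 9.22 and 9.76 in control, a change of -2.50 ± 0.34 (5.68-fold lower, adjusted p = 0.00109). Both chains thus changed by similar amounts, with no overlap of arrays, and passed with any 1 array left out. DDIT4, also called REDD1, is a stress-induced inhibitor of mTOR complex 1. It had 6.49 and 6.28 in the combination and 11.01, 9.12 and 11.06 in control, the second largest fall (-4.01 ± 0.77, 16.1-fold lower, adjusted p = 0.0104). Its controls differed by almost 2 log2 units, and the call was lost without combination replicate 1 or 2 (adjusted p = 0.0697 and 0.102). INHBE, a secreted factor of the activin family, had 5.79 and 7.21 in the combination and 10.48, 9.48 and 9.77 in control (-3.41 ± 0.57, adjusted p = 0.00417; 0.0737 without combination replicate 1). SLC1A5, a glutamine transporter, changed by -2.08 ± 0.44 (adjusted p = 0.0186; 0.0671 and 0.186 without combination replicate 1 and 2). SLC7A11, the cystine transporter, changed by -1.82 ± 0.42 (adjusted p = 0.0289) and lost its call without either combination array and without control replicate 1 or 3 (adjusted p from 0.057 to 0.287). The list had 3 calls without combination replicate 1, 4 without combination replicate 2 and 7 without control replicate 3. Of the 17 measured cytosolic aminoacyl-tRNA synthetases, which charge tRNAs with amino acids, 1 fell and none rose (median -0.63). It was GARS1, the glycyl-tRNA synthetase (-1.40 ± 0.34, adjusted p = 0.0355), which passed in 9 of the 17 fits without 1 array.

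ATF4 binds the CARE motif with its C/EBP partners. Of the named list members that passed, SLC1A5 is shown as the one with the largest fall that holds it before the last bases of a window. The motif was searched as TGATGNAA on both strands. It is in capitals in the stretch at chr19:46784864-46784951 (minus strand), where its first base lies at position -97 from the RefSeq start of that window.
SLC1A5: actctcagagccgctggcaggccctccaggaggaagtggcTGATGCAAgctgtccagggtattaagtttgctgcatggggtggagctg
It was in 11 of the 51 windows of the list (21.6%), against 583 of 21490 windows of all tested genes (2.71%) and 14 of 510 windows of genes that fell (2.75%). In the list, 11 genes with the motif had a median change of -0.88, and 19 without it one of -0.81.

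Sterol genes, which SREBP2 switches on, fell for 6 of 26 measured members and rose for none (median -0.77). SCARB1, the receptor that takes up cholesterol from high-density lipoprotein, had 8.30 and 7.67 in the combination and 11.41, 11.20 and 10.79 in control. Every control exceeded both combination arrays by more than 2 log2 units, and the change was -3.15 ± 0.40 (8.88-fold lower, adjusted p = 0.000565). EBP and DHCR7, enzymes of the late steps of cholesterol synthesis, changed by -2.11 ± 0.22 and -1.80 ± 0.27 (adjusted p = 0.000177 and 0.00207), and FDPS, which makes farnesyl diphosphate, by -1.58 ± 0.24 (adjusted p = 0.00253). These 4 passed with any 1 array left out. INSIG1, which retains the SREBP escort in the endoplasmic reticulum and is itself an SREBP target, changed by -2.72 ± 0.47 (adjusted p = 0.00491; 0.0832 without combination replicate 1). NSDHL, another enzyme of the late steps, changed by -1.67 ± 0.31 (adjusted p = 0.00864; 0.127 without combination replicate 1).

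Of 15 measured genes of fatty acid synthesis, 4 fell and none rose (median -0.46): SREBF1, SCD, FASN and ACACA. SREBF1 encodes SREBP1, the factor that drives the pathway. It had 9.66 and 8.43 in the combination and 11.79, 11.55 and 11.58 in control (-2.59 ± 0.49, 6.04-fold lower, adjusted p = 0.00939). The 2 combination arrays differed by more than 1 log2 unit while the controls agreed, and without combination replicate 2 the adjusted p was 0.162. SCD, the desaturase that makes oleate, had 9.01 and 8.90 in the combination and 11.11, 12.16 and 11.25 in control (-2.56 ± 0.28, adjusted p = 0.000261), and passed with any 1 array left out. FASN, fatty acid synthase, and ACACA, acetyl-CoA carboxylase, changed by -2.48 ± 0.41 and -1.02 ± 0.20 (adjusted p = 0.00415 and 0.0121). Both lost their calls without combination replicate 2 (0.0789 and 0.184), and the other probe set of FASN changed by -0.01. Without combination replicate 2 the list had 1 call.

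Glycolysis and hypoxia genes fell for 12 of 33 measured members and rose for none (median -0.94). GPI, which converts glucose-6-phosphate, and PGAM1, phosphoglycerate mutase, changed by -1.89 ± 0.28 and -1.43 ± 0.20 (adjusted p = 0.00187 and 0.00138) and passed with any 1 array left out. PGAM1 read 11.70 and 11.63 in the combination and 13.05, 12.84 and 13.39 in control, so that the groups did not overlap. SLC2A1, the glucose transporter GLUT1, changed by -1.96 ± 0.30 (adjusted p = 0.00219; 0.0574 without combination replicate 2), and its other probe set by -0.22. ALDOA, aldolase A, and LDHA, the A subunit of lactate dehydrogenase, changed by -1.64 ± 0.27 and -1.49 ± 0.23 (adjusted p = 0.00347 and 0.00266; 0.0528 and 0.0564 without combination replicate 1). The list had 3 calls without combination replicate 1, 5 without combination replicate 2 and 7 without control replicate 3. BHLHE40, a repressor induced by hypoxia and among the 15 largest falls, had 4.63 and 5.67 in the combination and 7.35, 6.86 and 9.74 in control. Control replicate 3 stood above the other controls, and the change of -2.83 ± 0.69 (adjusted p = 0.0358) passed in 10 of 17 fits without 1 array.

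Enzymes of purine, pyrimidine, folate and pentose metabolism fell for 6 of 26 measured members and rose for none (median -0.49). SLC19A1, the reduced folate carrier, changed by -1.56 ± 0.23 (adjusted p = 0.00159) and passed with any 1 array left out. TKT, transketolase of the pentose phosphate pathway, changed by -1.45 ± 0.23 (adjusted p = 0.00331; 0.0604 without combination replicate 1). SHMT2, DHODH, CAD and PFAS, of mitochondrial folate, pyrimidine and purine synthesis, changed by -1.34 to -0.95 with adjusted p from 0.0306 to 0.0391, and each lost its call without either combination array and without at least 1 control array. The list had 1 call without combination replicate 1, 2 without combination replicate 2 and 3 without control replicate 3 or without replicate 1 of 1 nM rapamycin. Oxidative phosphorylation subunits fell for 4 of 41 measured members and rose for none. The count was 0 without combination replicate 1 or 2 and 2 without control replicate 1 or 3.

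Of 37 measured genes of actin regulators, adhesion and tubulins, 4 rose and 4 fell (median -0.06), while 1.06% of all genes rose and 2.24% fell. Without combination replicate 1 the counts were 2 and 2, and without combination replicate 2 the rises were 1. The 4 falls were tubulins, subunits of microtubules. TUBA1B, the most widely used alpha-tubulin of dividing cells, had 12.03 on both combination arrays and 13.48, 13.56 and 13.87 in control (-1.60 ± 0.17, adjusted p = 0.000186). TUBA1C changed by -1.68 ± 0.21 (adjusted p = 0.000565), and these alpha-tubulins passed with any 1 array left out. TUBB, a beta-tubulin, changed by -1.997 ± 0.315 (adjusted p = 0.00283; 0.0535 without combination replicate 1). TUBB4B, named after its values were seen as the remaining fall, changed by -1.35 ± 0.31 (adjusted p = 0.0273) and did not pass without combination replicate 1. TUBB3, a beta-tubulin of neurons from the neuronal list, had 8.72 and 8.57 in the combination and 9.39, 9.68 and 9.84 in control (-0.99 ± 0.21, adjusted p = 0.0169). Its call was lost without either combination array or control replicate 3 (adjusted p from 0.0588 to 0.165). TUBA1A, the alpha-tubulin of neurons, was higher, with 8.93 and 9.53 in the combination and 7.86, 7.82 and 7.86 in control (1.38 ± 0.28, adjusted p = 0.013; 0.194 without combination replicate 2). These genes are close paralogs, and their probes may share signal.

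MHC class II molecules show peptides to CD4+ T cells, and myeloma cells often hold them at low levels. Of 16 measured genes of class II presentation, 8 rose and none fell, with a median of 1.17, while 1.06% of all genes rose. HLA-DPB1, a class II beta chain, had 11.51 and 12.003 in the combination and 10.13, 10.11 and 9.89 in control. The 3 controls agreed within 0.3 log2 units and lay below both combination arrays, and the change was 1.71 ± 0.21 (3.27-fold higher, adjusted p = 0.000486). With 1 array left out it lay between 1.46 and 1.96, with an adjusted p of at most 0.0157. HLA-DMA, a chain of the peptide exchange factor, and HLA-DOA, a chain of its inhibitor, changed by 1.31 ± 0.20 and 1.76 ± 0.36 (adjusted p = 0.00262 and 0.0149; 0.0654 and 0.188 without combination replicate 2). HLA-DRA, the class II alpha chain of HLA-DR, had 13.43 and 13.85 in the combination and 12.19, 12.55 and 12.96 in control (1.08 ± 0.23, adjusted p = 0.0205; 0.0509 and 0.234 without combination replicate 1 and 2). HLA-DRB1 changed by 1.14 ± 0.20 (adjusted p = 0.00599; 0.0795 without combination replicate 2). The probe set named HLA-DRB4 had 10.38 and 11.56 in the combination and 8.23, 8.01 and 8.23 in control (2.81 ± 0.38, adjusted p = 0.00105), and the 2 other probe sets of that name changed by -0.38 and -0.09. DRB genes are near-identical and differ between people and lines, so the gene behind each DRB signal is uncertain. HLA-DQA1 changed by 2.86 ± 0.72 (adjusted p = 0.0448) but passed in only 4 of 17 fits without 1 array. CD74, the invariant chain that guides class II molecules to the endosome, changed by 0.62 ± 0.15 (adjusted p = 0.0375) and passed in 5 of 17. CIITA, the master activator of class II genes, had 7.84 and 7.397 in the combination and 5.48, 7.32 and 6.46 in control, and did not pass (1.20 ± 0.51, adjusted p = 0.293). Without combination replicate 2 the list had 2 calls, and without combination replicate 1 it had 5.

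**Figure D4:**
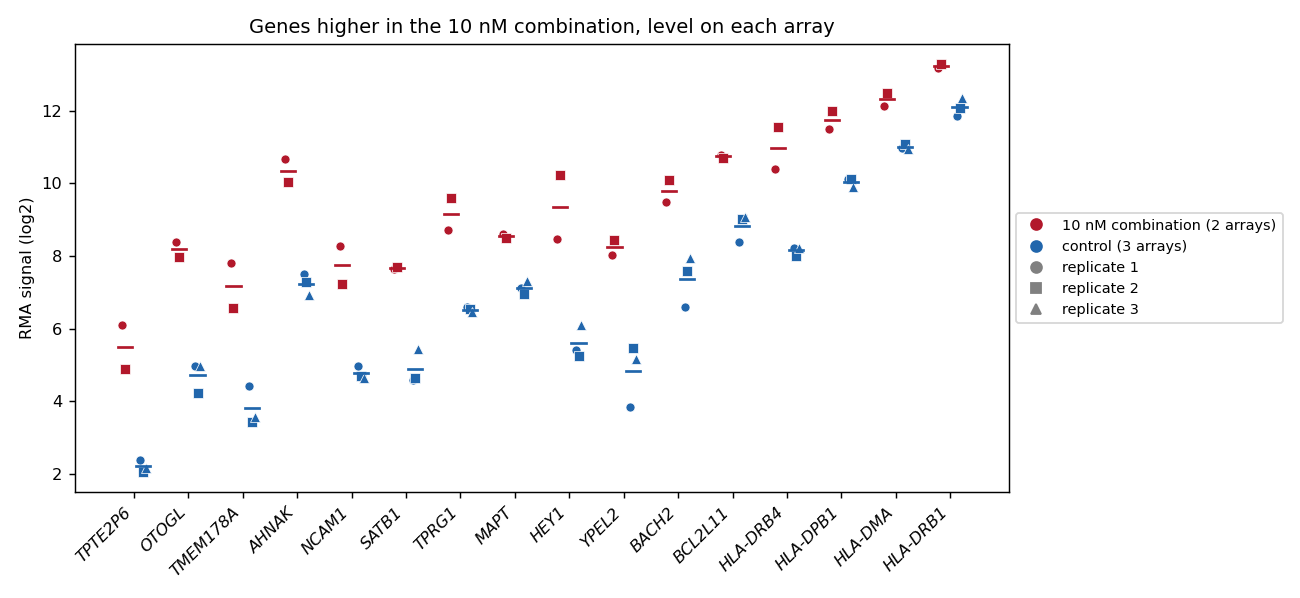
Log2 RMA signal of 16 genes on each array of the 10 nM combination (red, left of each pair) and control (blue); points are arrays, symbols are replicate numbers and bars are group means. On all 16 genes both combination arrays lie above the 3 control arrays, and the 2 combination arrays stand apart from each other by 1 log2 unit or more for TPTE2P6, TMEM178A, NCAM1, HEY1 and HLA-DRB4.

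Of the 15 largest rises, HLA-DRB4 and the 7 genes that follow passed with any 1 array left out. NCAM1 encodes the adhesion molecule CD56, found on neurons, natural killer cells and many myelomas. It had 8.29 and 7.24 in the combination and 4.96, 4.69 and 4.65 in control, and the change was 2.995 ± 0.376 (adjusted p = 0.000565). The other probe sets of NCAM1 changed by -0.19 to 3.30. Its control signals, like those of OTOGL, TPTE2P6 and TMEM178A, lay below the median of their arrays, and background was not measured, so no fold is given for them. AHNAK, a very large scaffold protein of the cell cortex, had 10.66 and 10.03 in the combination and 7.50, 7.27 and 6.94 in control. Both combination arrays were over 2 log2 units above every control, and the change was 3.11 ± 0.33 (8.63-fold higher, adjusted p = 0.000177), while its 4 other probe sets changed by -0.12 to 0.41. OTOGL, related to the inner ear protein otogelin, had 8.39 and 7.97 in the combination and 4.96, 4.22 and 4.97 in control (3.46 ± 0.40, adjusted p = 0.000345). The pseudogene TPTE2P6 and the membrane protein gene TMEM178A changed by 3.28 ± 0.33 and 3.38 ± 0.48 (adjusted p = 0.000177 and 0.00133). SATB1, a chromatin organiser of lymphocytes, had 7.63 and 7.71 in the combination and 4.59, 4.63 and 5.45 in control (2.78 ± 0.34, adjusted p = 0.000486). The other probe sets of SATB1 changed by -0.37 and 1.27. TPRG1 changed by 2.62 ± 0.36 (adjusted p = 0.00108).

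HEY1, a transcriptional repressor and target of Notch signalling, had the largest rise. It had 8.46 and 10.22 in the combination and 5.42, 5.26 and 6.11 in control (3.74 ± 0.66, adjusted p = 0.0063). Its signals on control replicate 1 and 2 lay near the medians of those arrays, 5.36 and 5.10, so no fold is given. The combination arrays differed by almost 2 log2 units, and without combination replicate 2 the change was 2.86 with an adjusted p of 0.123. YPEL2 and IL13RA2, a decoy receptor for interleukin 13, changed by 3.41 ± 0.57 and 3.06 ± 0.56 (adjusted p = 0.00417 and 0.00785; 0.0655 and 0.149 without combination replicate 2). CBLB, a ubiquitin ligase that dampens lymphocyte signalling, changed by 2.89 ± 0.65 (adjusted p = 0.0254) and lost its call without either combination array or control replicate 1 (adjusted p from 0.0659 to 0.191). MAP2, a neuronal microtubule protein whose other probe set changed by -0.01, and IL15, a cytokine of lymphocytes, had the most spread. MAP2 read 5.01 and 7.49 and IL15 read 5.71 and 7.80 in the combination. In control MAP2 read 2.60 to 3.79 and IL15 read 3.88 to 4.09, below the median of each control array. Their calls (adjusted p = 0.0377 and 0.047) held in 8 and 5 of the 17 fits without 1 array. Of 35 measured neuronal genes 4 rose (2 without combination replicate 2 or without control replicate 3), among them MAPT, the microtubule protein tau (1.42 ± 0.19, adjusted p = 0.000955), 1 fell, and the median was 0.00. Of 29 measured germ cell genes, none passed the test in either direction. Both lists stand beside 1.06% of all genes that rose and 2.24% that fell.

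In the BCL2 family, which controls mitochondrial cell death, 1 of 16 measured genes rose and 1 fell, while 1.06% of all genes rose and 2.24% fell. BCL2L11, also called BIM, a killer of lymphocytes deprived of growth signals, had 10.79 and 10.69 in the combination and 8.40, 9.03 and 9.07 in control. The combination arrays agreed within 0.1 and lay above every control by over 1.5 log2 units, and the change was 1.91 ± 0.33 (3.76-fold higher, adjusted p = 0.0048). Leaving out either combination array gave adjusted p of 0.0544 and 0.0522, and its 6 other probe sets changed by 0.26 to 2.95. BID, which links death receptors to mitochondria, changed by -1.41 ± 0.33 (adjusted p = 0.0301) and lost its call without either combination array and without control replicate 2 or 3 (adjusted p from 0.0635 to 0.254). MCL1, the survival protein on which myeloma cells mostly depend, had 12.63 on both combination arrays and 12.21, 12.25 and 12.73 in control, and did not pass (0.24 ± 0.18, adjusted p = 0.648). Its other probe sets changed by -0.62 to 0.78. BCL2, its relative, had 9.63 and 10.32 in the combination and 8.78, 8.41 and 9.34 in control, just short of the threshold (1.13 ± 0.30, adjusted p = 0.0525).

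Plasma cell and myeloma surface genes were measured for 31 of 31 list members, of which NCAM1 and GPRC5D rose and CD38, SDC1 and TNFRSF13B fell. Over all genes 1.06% rose and 2.24% fell, here and beside the other marker lists below. Without combination replicate 1, 1 rose and 1 fell, and without combination replicate 2, 1 rose and none fell. Without control replicate 1 the falls were 1, and without control replicate 2 or 3 the rises were 1. Of the plasma cell markers, IRF4 and TNFRSF17 were bright on all 5 arrays, while the markers CD38 and SDC1 fell. IRF4, which specifies plasma cells, had 12.29 and 12.32 in the combination and 12.48, 12.04 and 12.87 in control. TNFRSF17, the surface target BCMA, had 11.29 and 11.40 in the combination and 11.26, 11.89 and 11.42 in control. The groups overlapped for both IRF4 and TNFRSF17 and neither passed (adjusted p = 0.819 and 0.792), nor did XBP1 and PRDM1, which run the secretory programme (adjusted p = 0.657 and 0.0993). CD38, the NAD-consuming surface enzyme targeted by myeloma antibodies, had 7.56 and 7.43 in the combination and 8.98, 9.05 and 8.45 in control (-1.33 ± 0.23, 2.51-fold lower, adjusted p = 0.00519; 0.0767 without combination replicate 2). SDC1, the plasma cell marker CD138, changed by -1.45 ± 0.37 with an adjusted p of 0.0495 and passed in 3 of 17 fits without 1 array. GPRC5D, another surface target, changed by 1.08 ± 0.25 (adjusted p = 0.0305) and lost its call without either combination array or control replicate 2 or 3 (adjusted p from 0.0759 to 0.215). TNFRSF13B, the receptor TACI, changed by -1.30 ± 0.31 (adjusted p = 0.0327) and lost its call without either combination array or control replicate 1 or 3 (adjusted p from 0.0725 to 0.31). BACH2, a repressor that holds B cells back from the plasma cell state, had 9.48 and 10.10 in the combination and 6.58, 7.58 and 7.94 in control. Control replicate 1 was the lowest array, and the change was 2.42 ± 0.45 (5.37-fold higher, adjusted p = 0.00816; 0.123 without combination replicate 2). Of the 11 measured B cell markers BACH2 was the only one that rose and CD79B, part of the B cell receptor, the only one that fell (-1.39 ± 0.30, adjusted p = 0.0215; 0.0552 to 0.214 without either combination array or control replicate 1). None of the 11 T cell, 10 myeloid, 8 red cell, 12 epithelial or 12 fibroblast markers measured passed, and their list medians lay between -0.12 and -0.04.

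MYC, the factor in the series title, had 12.06 and 12.84 in the combination and 11.95, 11.66 and 12.41 in control. The groups overlapped, and the change of 0.44 ± 0.30 did not pass (adjusted p = 0.58). Its partner MAX had 10.20 and 10.60 in the combination and 8.65, 9.52 and 10.20 in control (0.94 ± 0.39, adjusted p = 0.272). None of the 11 measured genes of the MYC and MAX network passed. Over all genes 1.06% rose and 2.24% fell, here and beside the lists that follow. Of 22 regulators of MYC turnover, AURKA and PLK1 fell, as above, and FBXO32, a ubiquitin ligase subunit, rose (1.15 ± 0.27, adjusted p = 0.0274), a call lost without either combination array or control replicate 2 or 3 (adjusted p from 0.0666 to 0.283). FBXW7, the ligase subunit best known for marking MYC, had 9.78 and 8.48 in the combination and 8.92, 9.17 and 8.71 in control (adjusted p = 0.902). No gene of the mTOR complexes and their effectors passed among 25 measured, MTOR included (-0.37 ± 0.20, adjusted p = 0.457). Among the 21 measured histone deacetylases and co-repressor subunits the only call was CBFA2T3, a co-repressor of blood cell genes (-1.37 ± 0.24, adjusted p = 0.0063; 0.115 without combination replicate 2). HDAC1, HDAC2 and HDAC3, the enzymes that MS275 inhibits, gave changes of -0.23 ± 0.29, 0.35 ± 0.48 and -0.16 ± 0.31, and none passed (adjusted p from 0.795 to 0.876).

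The cytosolic ribosomal proteins, whose mRNAs carry the TOP motif that mTOR complex 1 controls in translation, had a median change of 0.49 over 43 measured genes, beside -0.08 for all genes. Of all genes 1.06% rose and 2.24% fell, here and beside the assembly factors below. Only RPL34 passed (0.99 ± 0.22, adjusted p = 0.0261; 0.132 and 0.185 without combination replicate 1 and 2), with 13.47 and 13.52 in the combination and 12.69, 12.91 and 11.93 in control. The count was 9 without control replicate 2 and 19 with array weights, and 0 without either combination array. Of the ribosome assembly factors 2 of 33 fell (median -0.31, from -0.50 to 0.07 over the alternatives), and without combination replicate 1 none did.

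Adding rapamycin to MS275 was the next comparison: the 10 nM combination against MS275 alone. Here 50 genes passed (0.253% of those tested), 49 lower (0.248%) and 1 higher (0.00506%) in the combination, and 890 (4.5%) had an unadjusted p under 0.05. It shares the combination arrays with the comparison above, so values are given side by side and not as separate support. RRM2 had 6.95 and 7.51 in the combination and 9.92, 9.40 and 10.11 with MS275, a change of -2.58 ± 0.42 (adjusted p = 0.0181). GINS2 and CDC25A changed by -1.92 ± 0.24 and -1.74 ± 0.23 (adjusted p = 0.0036 and 0.00463). Several genes were high with MS275 alone and not with both drugs. C3AR1, a receptor of complement C3a, had 5.42 and 5.36 in the combination, 8.06, 7.84 and 8.05 with MS275 and 5.31, 5.55 and 5.05 in control. The combination arrays thus lay inside the control range, and the change against MS275 was -2.60 ± 0.20 (adjusted p = 6.14e-05). The C3AR1 signals of combination and control lay near the medians of their arrays, so no fold is given. EMP2, a membrane protein, had 5.60 and 5.45 in the combination, 8.09, 7.57 and 8.12 with MS275 and 4.58, 5.81 and 5.14 in control (-2.40 ± 0.30 against MS275, adjusted p = 0.0036). P4HA1, a collagen prolyl hydroxylase, had 8.74 and 9.56 in the combination and 11.81, 11.82 and 11.80 with MS275 (-2.66 ± 0.42, adjusted p = 0.0156). Against control P4HA1 was also lower in the combination, by -1.16, which did not pass, and its other probe set changed by -0.18. SREBF1 read 11.90, 11.89 and 11.01 with MS275, near its control level, and its change was -2.56 ± 0.49 (adjusted p = 0.049), which passed in 3 of 17 fits without 1 array. CD38 changed by -1.80 ± 0.23 and the lysosomal sialidase NEU1 by -1.67 ± 0.20 (adjusted p = 0.00371 and 0.0036). The single rise was COQ8A, a mitochondrial protein of coenzyme Q synthesis (0.91 ± 0.14, adjusted p = 0.0138). Of 23 named genes that passed, C3AR1 alone did so with any 1 array left out. The highest adjusted p with 1 array left out was 0.294 for RRM2 and P4HA1, 0.123 for CDC25A, 0.258 for COQ8A and 0.0933 for GINS2, EMP2, CD38 and NEU1. The count of calls was 3 without combination replicate 1, 6 without combination replicate 2, 19 and 32 without MS275 replicate 1 and 3, and 77 without control replicate 1.

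Adding MS275 to rapamycin was tested by setting the 10 nM combination against 10 nM rapamycin alone: 86 genes passed (0.435%), 59 higher (0.298%) and 27 lower (0.137%) in the combination, and 1452 (7.34%) had an unadjusted p under 0.05. This comparison too shares the combination arrays. AHNAK had 10.66 and 10.03 in the combination and 6.80, 7.56 and 6.79 with rapamycin (3.29 ± 0.33, adjusted p = 0.000672), and NCAM1 had 8.29 and 7.24 in the combination and 4.32, 4.44 and 4.36 with rapamycin (3.39 ± 0.38, adjusted p = 0.000914). With rapamycin alone both genes read near control, and with MS275 alone near the combination (-0.06 ± 0.33 and -0.29 ± 0.38, combination minus MS275, adjusted p = 1). TPTE2P6 changed by 3.06 ± 0.33 (adjusted p = 0.000758). TOX2, a nuclear protein of lymphocytes, was higher than with rapamycin (3.07 ± 0.46, adjusted p = 0.00817; 0.175 without combination replicate 2), while its change against control did not pass (1.58 ± 0.46, adjusted p = 0.0864). Among the falls, BDH1, an enzyme of ketone body metabolism, had 6.39 and 6.45 in the combination and 8.21, 8.30 and 8.56 with rapamycin (-1.94 ± 0.20, adjusted p = 0.000672). ZBP1, a sensor of nucleic acids, changed by -1.98 ± 0.23 (adjusted p = 0.00158), and CBFA2T3 by -1.83 ± 0.24 (adjusted p = 0.00298; 0.106 without combination replicate 2). RRM2 (-2.30 ± 0.42) and 4 of the 26 helicase genes, MCM5 (-1.75 ± 0.32), MCM4 (-1.65 ± 0.24), MCM2 (-1.60 ± 0.29) and GINS2 (-1.59 ± 0.24), fell below the rapamycin arrays (adjusted p from 0.00573 to 0.0276), and each of these 5 calls was lost without either combination array (highest adjusted p with 1 array left out from 0.11 to 0.33). AHNAK, NCAM1, TPTE2P6, BDH1 and ZBP1 were the 5 of 27 named genes that passed with any 1 array left out. The count of calls was 11 without combination replicate 2, 16 without combination replicate 1, from 32 to 44 without each rapamycin array, 157 without control replicate 1, and 53 and 57 without replicate 1 and 3 of 1 nM rapamycin.

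**Figure D5:**
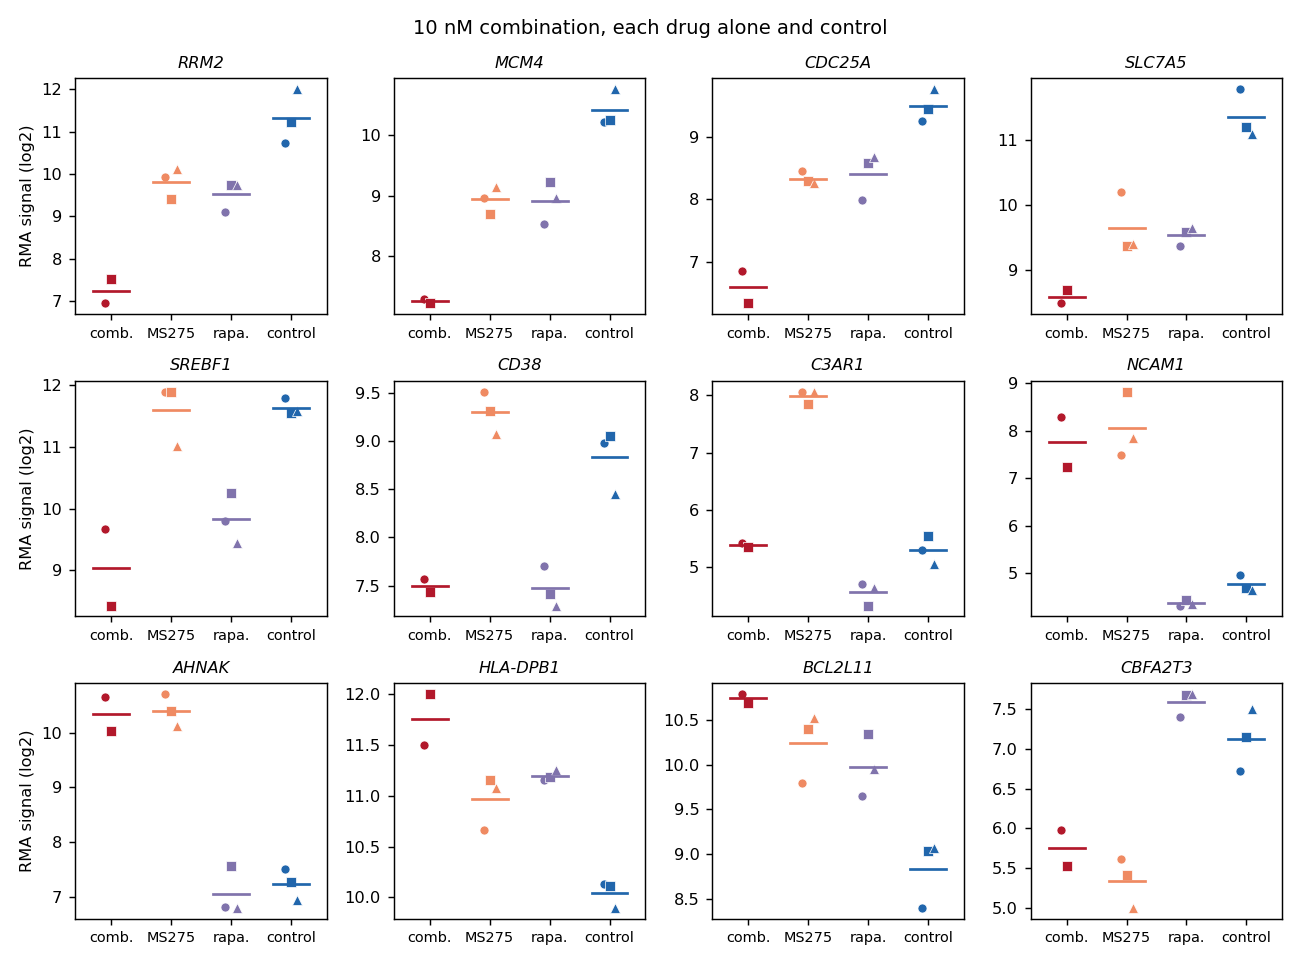
Log2 RMA signal of 12 genes on the arrays of the 10 nM combination, MS275, 10 nM rapamycin (rapa.) and control; points are arrays, bars are group means, and each panel has its own axis, which does not start at 0. For RRM2, MCM4 and CDC25A the combination lies below both single drugs, which lie below control; for C3AR1 the MS275 arrays alone are high; for NCAM1 and AHNAK both groups with MS275 are high.

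Most genes that passed against control did not pass against either single drug: 652 passed against control, 50 against MS275 and 86 against 10 nM rapamycin. Examples follow. SLC7A5 had 8.49 and 8.69 in the combination, 10.19, 9.36 and 9.40 with MS275 and 9.37, 9.59 and 9.65 with 10 nM rapamycin. All 6 single-drug arrays lay above both combination arrays, but neither difference passed (-1.06 ± 0.26 and -0.94 ± 0.26, adjusted p = 0.149 and 0.162). HLA-DPB1 had 11.51 and 12.003 in the combination, 10.66, 11.16 and 11.08 with MS275 and 11.16, 11.19 and 11.25 with 10 nM rapamycin, with no overlap and no call (0.79 ± 0.21 and 0.55 ± 0.21, adjusted p = 0.242 and 0.455). DDIT4 had 6.49 and 6.28 in the combination, 9.72, 10.58 and 8.67 with MS275 and 6.12, 8.59 and 6.39 with rapamycin. Its combination arrays lay among the rapamycin arrays, and neither difference passed (adjusted p = 0.132 and 1).

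Between the rapamycin doses, both with MS275, no gene passed (0 of 19775 at an adjusted p under 0.05; 152, or 0.769%, at an unadjusted p under 0.05, limma). RRM2 had 6.95 and 7.51 in the 10 nM combination and 7.26, 7.83 and 8.68 in the 1 nM combination (-0.70 ± 0.42, adjusted p = 0.995). MCM4 had 7.29 and 7.23 at 10 nM and 8.39, 7.86 and 8.06 at 1 nM. Both arrays at the higher dose lay below all 3 at the lower, but the change of -0.84 ± 0.24 did not pass after adjustment. SLC7A5 changed by -0.07 ± 0.26, AHNAK by 0.07 ± 0.33 and HLA-DPB1 by 0.20 ± 0.21. The median 95% confidence interval of a gene, not adjusted for the number of genes, reached 0.60 log2 units to either side in this comparison. The calls are adjusted over all genes, so larger dose differences can also go uncalled, as the -0.84 of MCM4 did.

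The interaction, the change in the combination less the sum of the changes with each drug alone, passed for no gene (0 at an adjusted p under 0.05; 194, or 0.981%, at an unadjusted p under 0.05, limma). Its median 95% confidence interval reached 0.81 log2 units to either side. For RRM2 it was -0.78 ± 0.56, for MCM4 -0.18 ± 0.32, for GINS2 -0.95 ± 0.32, for CDC25A -0.67 ± 0.31 and for SLC7A5 0.75 ± 0.34 (adjusted p = 1 for each). C3AR1 came nearest to the threshold among the genes named here, at -1.86 ± 0.27 (adjusted p = 0.0733), followed by EMP2 at -2.06 ± 0.41 (adjusted p = 0.854).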

How the data were processed

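The members, gene lists, tests and alternatives were chosen with earlier results of these data known. Total RNA was extracted with TRIzol and labelled with biotin as amplified antisense RNA, per the labels' protocols. The authors deposited log2 signals per probe set, for which the submitters' processing notes name affy and RMA, with versions not given in the sources used here. These deposited values were used without further normalization. Of 54613 probe sets, 41091 carry 1 gene symbol, 1801 several and 11721 none, and 41037 of the first were matched through their Entrez IDs to a RefSeq gene table (GRCh38.p14). Among the probe sets of 1 symbol the one brightest on average stood for its gene, giving 19775 genes. Precision is limited by how many arrays there are (median 95% interval 0.60 log2 units to either side).

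Group means were fitted in R 4.3.3 with limma 3.58.1 (lmFit, eBayes) to all 17 arrays in 6 groups, so that the 5 arrays share the spread of the other 12, and p-values were adjusted over all genes (Benjamini-Hochberg, threshold 0.05). The fit was tested on simulated data. The 41 lists hold 1153 entries, of which 1054 were measured. Named genes are the 15 largest rises and falls past the threshold with no overlap of arrays, up to 6 per list by adjusted p, 32 genes of interest (1 is not reported here) and, in the other comparisons, the 6 largest rises and falls. Promoters are RefSeq windows (GRCh38.p14), found for 15384 of the genes, and a gene can have more than 1. Those shown belong to the named members that passed, with the largest change among those that hold the motif, outside chromosome 8. Matches in the last bases of a window were left out of this choice. Alternatives were a fit of the compared arrays only, the replicate number as a block, array weights, quantile normalization, eBayes with trend and robust settings, the mean of a gene's probe sets, the 9888 genes of highest mean, the 2 narrow arrays left out and each array left out.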

Additional observations from a re-analysis of the deposited data

How the results depend on the processing

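No named gene that passed in the 10 nM combination against control changed sign under any alternative, and 46 of the 131 passed with each of the 17 arrays left out. The count of 652 was 0 with the 5 arrays alone, 1343 with the replicate block, 1555 with array weights and 159 to 799 with 1 array left out. Against MS275 the count of 50 was 0 with the 5 arrays of those groups alone, 100 with the replicate block, 25 with trend and robust settings, 110 without the 2 narrow arrays and 3 to 77 with 1 array left out. Against 10 nM rapamycin the count of 86 was 0 with those groups alone, 338 with the replicate block, 325 with array weights, 45 among the 9888 genes of highest mean, 262 without the narrow arrays and 11 to 157 with 1 array left out. The interaction count of 0 was 2 with array weights, quantile normalization or mean probe sets, and 0 to 2 with 1 array left out. The 1 nM dose comparison stayed at 0 in each. The share of calls that were higher in the combination than in control was 32.1%, 44.6% with the replicate block and 21.4% without combination replicate 2. Against 10 nM rapamycin it was 68.6%, and 48.9% among those 9888. The replicate numbers did not pair the combination with control: the deviations of same-numbered arrays correlated at 0.31 and 0.01 across genes, over 2 shared numbers only. Combination replicate 1 correlated at 0.63 to 0.74 with replicate 2 of MS275 and of both rapamycin groups, and combination replicate 2 at 0.51 to 0.84 with replicate 3 of the 5 other groups, in deviations that mirror each other as there are 2 arrays. The block by number does not follow this, and a block that follows it was not fitted. Most named calls that were lost without 1 array were lost without a combination array, of which there are 2.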

Other observations

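NEU1, the lysosomal sialidase, had 8.40 and 8.52 in the combination and 10.81, 10.28 and 10.06 in control (-1.93 ± 0.20, 3.80-fold lower, limma adjusted p = 0.000177), and it passed with any 1 array left out. GLA, alpha-galactosidase A, changed by -1.81 ± 0.34 (adjusted p = 0.00908; 0.156 without combination replicate 2), and these were the 2 of 33 measured lysosome and autophagy genes that fell (1 without combination replicate 2), while 2.24% of all genes fell. Of 37 genes of the unfolded protein response and secretory pathway 3 fell, with a median of -0.21, and 1 or none did without combination replicate 1 or 2 or control replicate 3. SEC61A1, the channel through which secreted proteins enter the endoplasmic reticulum, had 10.85 and 10.57 in the combination and 12.39, 12.17 and 12.07 in control (-1.50 ± 0.25, adjusted p = 0.00428; 0.0767 without combination replicate 2). None of the 33 measured proteasome genes passed.

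FOXO1, a factor that mTOR and AKT signalling hold back, changed by 1.21 ± 0.28 (adjusted p = 0.0279), and lost its call without either combination array or control replicate 1 or 2 (adjusted p from 0.0626 to 0.263). TAP1, the peptide pump of MHC class I loading, changed by -0.84 ± 0.20 (adjusted p = 0.0351), while NLRC5, the activator of class I genes, changed by 1.19 ± 0.27 (adjusted p = 0.0261). Over all genes 1.06% rose and 2.24% fell, here and beside the p53 list that follows. Both class I calls were lost without either combination array and without control replicate 3 (adjusted p from 0.063 to 0.329), and they were the only ones among 38 measured genes of class I presentation and the interferon response. ZMAT3, a p53 target, changed by 1.52 ± 0.30 (adjusted p = 0.0121; 0.0564 and 0.144 without combination replicate 1 and 2), the only call among 27 measured p53 pathway genes.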
